A study of Homo sapiens with 6 samples.

Results

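The transcripts described here encode 8 enzymes that desaturate or elongate fatty acyl chains: the desaturases FADS1, FADS2 and FADS3 and the elongases ELOVL1, ELOVL2, ELOVL4, ELOVL5 and ELOVL7. They were chosen by gene symbol, with earlier results of these data known. All 8 were found among the 23002 genes of the expression table. RNA-seq compared U251 cells, an established human glioblastoma (GBM) line, carrying a control short hairpin RNA (sh-NC, labelled NC, n = 3) with U251 cells in which a hairpin lowered TRAF2 (sh-TRAF2, labelled KD, n = 3). TRAF2 is the adaptor and ubiquitin ligase that acts below the TNF receptors, and the comparison asked which transcripts, those of lipid metabolism among them, differ when it is depleted. Hairpins were delivered by lentivirus and stable lines were selected with puromycin, so both groups carried a vector and had been through selection. Which TRAF2 hairpin the sequenced line carried, and whether the 3 libraries of a group came from separate cultures, is not given in the sources used here, so p-values measure the spread between these libraries, which may be technical.

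Mammals cannot make linoleic and alpha-linolenic acid, which come from the diet or the medium. FADS2 adds the first new double bond to them, ELOVL5 lengthens the product, and FADS1 adds the next bond to give arachidonic and eicosapentaenoic acid. ELOVL2 and ELOVL4 carry these chains on to greater lengths, and neural tissue is rich in the products. The remaining members lie beside this route: FADS3 acts on sphingoid bases, while ELOVL1 and ELOVL7 mainly lengthen saturated chains.

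Values are FPKM, fragments scaled to gene length and to library size, so a comparison of different genes depends on the lengths used. FPKM does not correct for differences in composition between libraries. The values summed to 349408 to 350440 in sh-NC and 352745 to 353563 in sh-TRAF2, and other normalizations were tried below. The totals by which the values were scaled, recovered from the values themselves, were 34315233 to 37165301 reads per library. TRAF2 was at 15.1, 18.4 and 15.3 FPKM in sh-NC and at 3.26, 3.22 and 3.33 FPKM in sh-TRAF2, lower in all 3 knockdown libraries as labelled (log2 fold change -2.27, adjusted p = 1.16e-06 from limma). Of 8 astroglial and mesenchymal glioma markers, 7 averaged at least 0.5 FPKM and S100B was near 0. Their sum was 1460 to 1531 FPKM in sh-NC and 1811 to 1856 in sh-TRAF2. On group means VIM was at 1242 FPKM in sh-NC and 1582 in sh-TRAF2, NES at 5.35 and 11.7, and GFAP at 0.467 and 1.18, while CD44 was at 189 and 179. Endothelial and oligodendrocyte markers summed to under 0.1 FPKM in every library. Of the immune markers PTPRC and CSF1R were near 0, and CD68 was at 16.1 FPKM in sh-NC and 15.9 in sh-TRAF2. Of the neuronal markers SYT1 was at 25.1 and 13.8 FPKM, SNAP25 at 0.297 and 0.598, and RBFOX3 near 0. Of the epithelial markers EPCAM and CDH1 were near 0, and KRT8 was at 0.792 and 1.20 FPKM. The part of these markers in the results was not tested. In bulk RNA, fewer cells with a transcript and less transcript per cell cannot be told apart.

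FADS1, FADS2 and FADS3 form a cluster on chromosome 11. In GENCODE release 29 (GRCh38), FADS2 spans chr11:61792980-61867354 on the plus strand, FADS1 chr11:61799625-61829318 on the minus strand and FADS3 chr11:61873519-61892051 on the minus strand, 6164 bases beyond FADS2. The whole 29694-base span of FADS1 lies inside that of FADS2 on the opposite strand. Over all annotated transcripts the exons of FADS1 and FADS2 share 490 bases, 4.79% of FADS1's exon bases and 4.44% of FADS2's. Their principal transcripts share 0 exon bases and start 10599 bases apart. The strand setting used in counting is not given in the sources used here, so reads in the shared bases could have gone to either gene or to neither. The elongases lie apart: ELOVL1 at chr1:43363397-43368074, ELOVL7 at chr5:60751791-60844389, and ELOVL2, ELOVL5 and ELOVL4 on chromosome 6 at chr6:10980759-11044314, chr6:53267398-53349179 and chr6:79914812-79947580, each on the minus strand.

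The targets of both TRAF2 hairpins lie in the coding sequence of TRAF2, at chr9:136916579-136916599 for the first and chr9:136920480-136920500 for the second, on the plus strand of GRCh38. They are shown because a stretch of 7 bases (a heptamer) from the first, ATTCCAC, also occurs in members. Capitals mark it, at bases 10 to 16 of the first target counted from its 5′ end.
sh-TRAF2#1 target: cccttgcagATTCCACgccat
sh-TRAF2#2 target: ctggaccaagacaagattgaa

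ATTCCAC and TTCCACA, which overlap by 6 bases, were searched on the sense strand of each member's principal transcript, because both had stood out in an earlier scan of these same data. They are therefore no independent evidence on these genes. TTCCACA is not in either target, and TRAF2's own principal transcript does not hold it. ATTCCAC lay in the 3′ untranslated region (UTR) of FADS1, FADS2 and ELOVL7, and TTCCACA in the coding sequence of FADS1, FADS2 and FADS3. Neither occurred in the principal transcripts of ELOVL1, ELOVL2, ELOVL4 or ELOVL5, and 0 members held a whole target in theirs. Other transcripts of these genes were not searched. Over the 10611 tested genes with a coding transcript of the same symbol (89.4% of 11870), 9.38% held ATTCCAC in the 3′UTR and 13.9% held TTCCACA in the coding sequence, while 34.0% held either one somewhere in the transcript. A match is a description of the sequence, and which hairpin was used is not given, so the part of these matches in the values below was not tested. The sites follow, 5′ to 3′ on the transcript strand, with the heptamer in capitals.
FADS2 3′UTR, chr11:61866387-61866393: tcacgggccccATTCCACcgcctccccaa
FADS1 3′UTR, chr11:61802049-61802055: ttaacactaaaATTCCACtcatgccgggc
ELOVL7 3′UTR, chr5:60752590-60752596: tgctctaatttATTCCACtggaaaggtct
FADS2 coding, chr11:61848219-61848225: agcctaacatcTTCCACAaggatcccgat
FADS3 coding, chr11:61878568-61878574: agcccaacatcTTCCACAaagacccagac
FADS1 coding, chr11:61813332-61813338: cctttgtggccTTCCACAtcaacaagggc

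**Figure D1:**
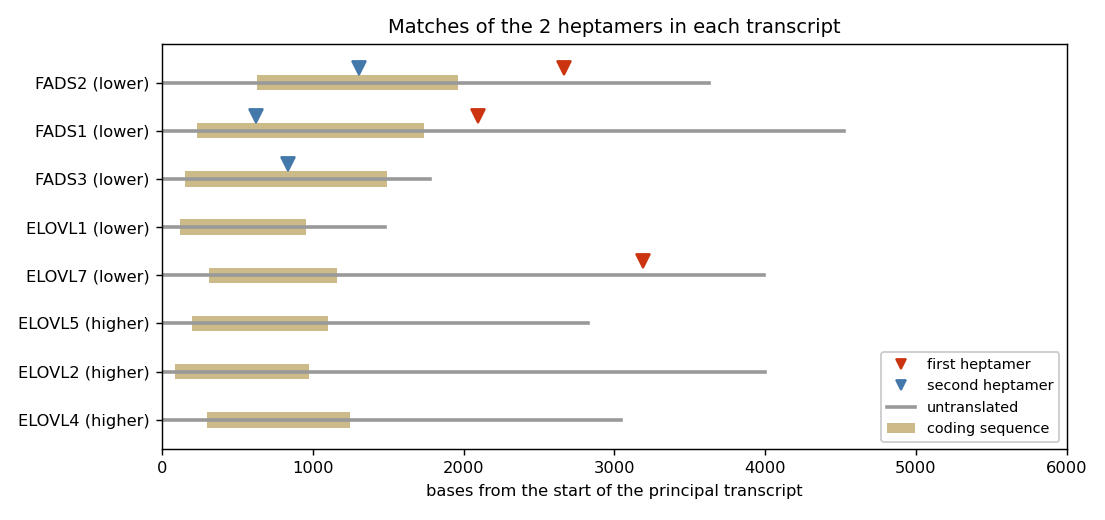
Principal transcript of each member drawn from its start (horizontal axis, bases), with the coding sequence as a thick bar and untranslated regions as a line; red triangles mark ATTCCAC and blue triangles TTCCACA. Labels give the direction of each gene in sh-TRAF2. FADS1, FADS2 and ELOVL7 carry ATTCCAC in the 3′UTR, as do 9.38% of tested genes with a coding transcript. In the transcripts drawn, FADS3 carries TTCCACA alone, and ELOVL1, ELOVL2, ELOVL4 and ELOVL5 carry neither. Other transcripts were not searched. Of those tested genes, of either direction, 34.0% hold either heptamer somewhere in the transcript. Both heptamers came from an earlier scan of these same data, so their place beside the directions is no independent evidence and was not tested.

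All 8 members passed the test in sh-TRAF2 against sh-NC, 5 lower and 3 higher. Of the 11870 tested genes 44.6% passed, 20.9% lower and 23.7% higher. The members were chosen with earlier results of these data known, so their count beside that share is a description only. Their median log2 fold change was -0.42, beside 0.02 over all tested genes. The 3 desaturases fell, as did ELOVL1 and ELOVL7. ELOVL2, ELOVL4 and ELOVL5 rose. The 2 groups did not overlap for any of the 8, and 55.5% of all tested genes also had groups that did not overlap. A two-sided exact permutation test of 3 against 3 libraries cannot go below p = 0.1, which is the value for each member, so the adjusted p-values below come from limma's moderated fit over all tested genes.

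FADS2, the desaturase that opens the route to long polyunsaturated chains, had the largest change of the 8. It was at 37.8, 30.2 and 44.9 FPKM in the sh-NC libraries and at 12.9, 13.0 and 17.9 FPKM in the sh-TRAF2 libraries. The lowest control library thus lay well above the highest knockdown library, although the spread was wide in both groups (coefficient of variation 19.6% in sh-NC and 19.8% in sh-TRAF2). On means FADS2 was 61.2% lower. Its log2 fold change was -1.36 (standard error 0.16, 95% interval -1.73 to -0.99, adjusted p = 0.000318 from limma). From the lowest log2 fold change upwards it ranked 22 among the 11870 tested genes, and it was the one member among the 0.733% of tested genes called with a log2 fold change below -1. These values rest on 3870 to 5983 reads per library in sh-NC and 1601 to 2257 in sh-TRAF2.

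FADS1, which makes arachidonic and eicosapentaenoic acid, was at 45.6, 40.5 and 47.2 FPKM in sh-NC and 28.2, 28.9 and 31.1 in sh-TRAF2. Every knockdown library was below every control library, and the mean was 33.8% lower. The log2 fold change was -0.59 (standard error 0.064, 95% interval -0.74 to -0.45, adjusted p = 0.000198 from limma). FADS3, at 29.1, 30.5 and 33.0 FPKM in sh-NC, was at 22.9, 24.2 and 26.6 FPKM in sh-TRAF2. That fall of 20.4% on means was the smallest of the desaturases (log2 fold change -0.33, standard error 0.067, 95% interval -0.48 to -0.18, adjusted p = 0.00474 from limma). Reads per library ranged from 4462 to 7964 for FADS1 and from 1742 to 2679 for FADS3.

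The desaturases also changed relative to each other. The FPKM of FADS2 divided by that of FADS1 was 0.829, 0.745 and 0.952 in sh-NC and 0.456, 0.450 and 0.577 in sh-TRAF2, so the ratio was lower in all 3 knockdown libraries. FADS3 over FADS1 went the other way, from 0.638, 0.754 and 0.70 to 0.812, 0.836 and 0.857; this ratio was chosen after its values were seen. FADS2 made up 33.1% of the summed desaturase FPKM in sh-NC and 21.2% in sh-TRAF2, and FADS3 27.5% and 35.9%. The sum itself was 113 ± 11.9 FPKM (SD, n = 3) in sh-NC and 68.6 ± 6.21 in sh-TRAF2, 39.3% lower. Ratios and sums are given as descriptions, with no test.

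Within the control group 5 of the 8 members shared an order of the libraries. FADS2 was lowest in sh-NC replicate 2 and highest in replicate 3, and the same libraries were lowest and highest for FADS1, ELOVL4, ELOVL5 and ELOVL7. ELOVL1 ran the opposite way, highest in replicate 2 and lowest in replicate 3, while FADS3 was lowest and ELOVL2 highest in replicate 1. SCD, the desaturase that makes monounsaturated chains, followed the order of FADS2 in sh-NC over a wider range, at 114, 72.7 and 148 FPKM. In sh-TRAF2 SCD was at 50.8, 49.8 and 60.5 FPKM. The 5 members did not share an order in sh-TRAF2. There FADS1 and FADS2 were lowest in replicate 1, ELOVL4 in replicate 3, and ELOVL5 and ELOVL7 in replicate 2. How many of all tested genes had the control order was not counted. Leaving out sh-NC replicate 2 gave FADS2 a log2 fold change of -1.51, against -1.22 when sh-NC replicate 3 was left out, and it passed the test each time.

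**Figure D2:**
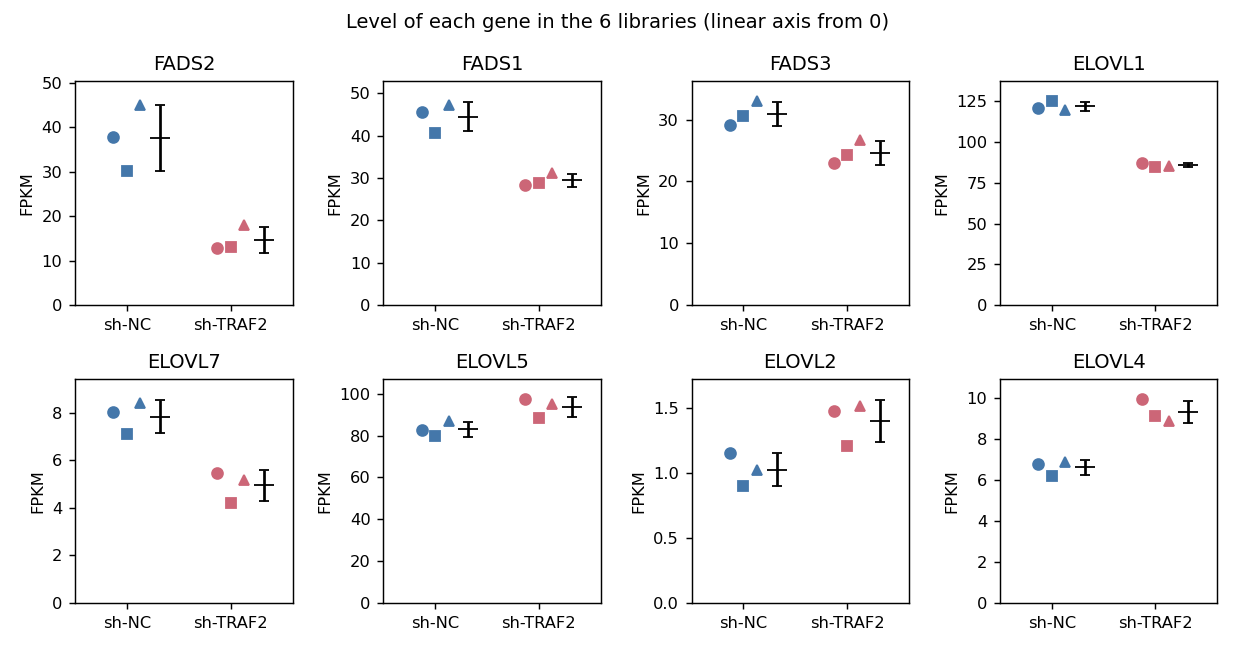
FPKM (vertical axes, linear and starting at 0) of each member in the 3 sh-NC and 3 sh-TRAF2 libraries; circle, square and triangle are replicates 1, 2 and 3, and the black bar is the mean ± SD. The groups do not overlap in any panel, with FADS2 showing the largest relative gap and ELOVL5 the smallest.

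Of the elongases, ELOVL1 was the most abundant in control cells and had the smallest adjusted p of the 8. ELOVL1, which lengthens saturated and monounsaturated chains to very long ones, was at 121, 125 and 120 FPKM in sh-NC and at 87.3, 84.7 and 85.6 FPKM in sh-TRAF2. Replicates were tight, with coefficients of variation of 2.39% and 1.54%, and the mean was 29.6% lower (log2 fold change -0.50, standard error 0.033, 95% interval -0.58 to -0.43, adjusted p = 1.86e-05 from limma). ELOVL7, also active on saturated chains, was at 8.02, 7.09 and 8.42 FPKM in sh-NC and 5.48, 4.22 and 5.19 in sh-TRAF2. Its mean was 36.8% lower, and its log2 fold change was -0.66 (standard error 0.10, 95% interval -0.90 to -0.42, adjusted p = 0.00142 from limma).

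The 3 elongases that act on polyunsaturated chains moved in the other direction. ELOVL4, which builds the very long polyunsaturated chains of retina and brain, was at 6.77, 6.19 and 6.90 FPKM in sh-NC and 9.95, 9.15 and 8.88 in sh-TRAF2. Its mean was 40.9% higher (log2 fold change 0.49, standard error 0.066, 95% interval 0.34 to 0.64, adjusted p = 0.00061 from limma). ELOVL5, which works between the steps of FADS2 and FADS1, was at 82.5, 79.8 and 86.8 FPKM in sh-NC and 97.4, 88.5 and 95.2 in sh-TRAF2. The lowest knockdown and the highest control library were close, and the increase of 12.8% on means was the smallest change of the 8 (log2 fold change 0.17, standard error 0.048, 95% interval 0.06 to 0.28, adjusted p = 0.0184 from limma). ELOVL2, which acts on chains already lengthened by ELOVL5, was at 1.15, 0.899 and 1.02 FPKM in sh-NC and 1.48, 1.21 and 1.52 in sh-TRAF2. With 187 to 309 reads per library it was the least abundant member, and its increase had a wide interval (log2 fold change 0.42, standard error 0.14, 95% interval 0.10 to 0.73, adjusted p = 0.038 from limma). The calls of ELOVL2 and ELOVL5 were each lost under 6 of 15 other settings. Both calls were lost with no filter on low values (adjusted p = 0.109 for ELOVL2 and 0.0511 for ELOVL5) and with quantile normalization (0.0579 and 0.0534), and that of ELOVL5 also under eBayes without a trend (0.0541). Leaving out single libraries also ended them: ELOVL2 without sh-NC replicate 2 or 3 or sh-TRAF2 replicate 1 or 3 (adjusted p between 0.0778 and 0.12 in those 4 fits), and ELOVL5 without sh-NC replicate 1 or sh-TRAF2 replicate 1 or 3 (between 0.0541 and 0.0613). The other 6 members passed under all 15.

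**Figure D3:**
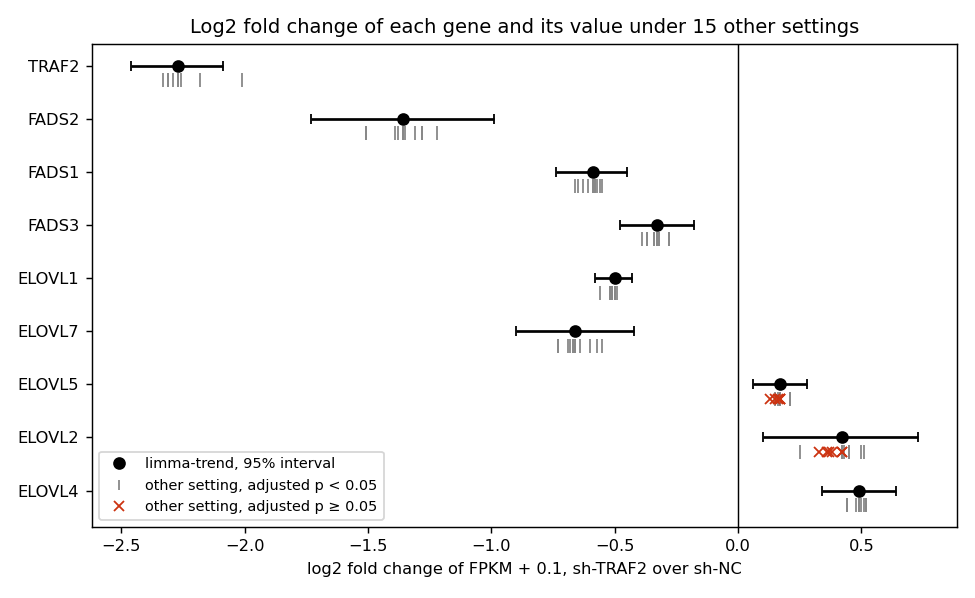
Log2 fold change of FPKM + 0.1, sh-TRAF2 over sh-NC (horizontal axis), for TRAF2 and the 8 members: black points with bars are the limma estimate and its 95% interval, and marks below are the same gene under 15 other settings. Crosses, where the adjusted p was 0.05 or more, occur for ELOVL5 and ELOVL2, and no mark crosses 0.

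The order of the levels changed for some neighbouring members. In sh-NC it ran ELOVL1 (122 FPKM on average), ELOVL5 (83.0), FADS1 (44.5), FADS2 (37.6), FADS3 (30.9), ELOVL7 (7.85), ELOVL4 (6.62) and ELOVL2 (1.03). The libraries of FADS1 and FADS2 overlapped there, as did those of FADS2 and FADS3, and the other neighbours did not. In sh-TRAF2 the order was ELOVL5 (93.7 FPKM), ELOVL1 (85.9), FADS1 (29.4), FADS3 (24.6), FADS2 (14.6), ELOVL4 (9.33), ELOVL7 (4.96) and ELOVL2 (1.40), with no neighbours overlapping. The pairs that changed places were ELOVL1 with ELOVL5, FADS2 with FADS3, and ELOVL7 with ELOVL4. Places in the order depend on the gene lengths behind FPKM, and other lengths could alter them for genes of close level. The length recovered from the values was 2183 bases for FADS3, against 1779 in its principal transcript. For FADS2 the lengths were 3585 and 3630 bases. ELOVL5 over ELOVL1, a ratio chosen after its values were seen, was 0.683, 0.637 and 0.726 in sh-NC and 1.12, 1.04 and 1.11 in sh-TRAF2. ELOVL5 over ELOVL2, the first and second polyunsaturated elongases of the route, was 71.5, 88.7 and 84.9 in sh-NC and 65.9, 73.0 and 62.8 in sh-TRAF2, and here the groups overlapped. The summed FPKM of the 5 elongases was 220.5 ± 2.08 (SD, n = 3) in sh-NC and 195 ± 6.97 in sh-TRAF2.

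**Figure D4:**
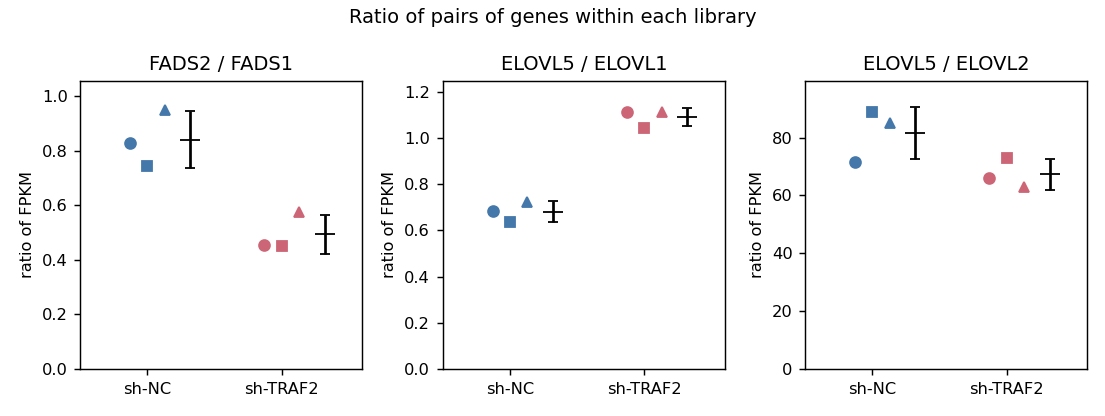
Ratio of FPKM within each library (vertical axes, starting at 0) for 3 pairs of members; circle, square and triangle are replicates 1, 2 and 3, and the black bar is the mean ± SD. The groups are apart for FADS2 / FADS1 (0.745 to 0.952 against 0.450 to 0.577) and ELOVL5 / ELOVL1, and overlap for ELOVL5 / ELOVL2.

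Elongases carry out the first step of the cycle by which carbons are added to a chain. The counts of this and the following lists stand against the 44.6% of all tested genes that passed and their median log2 fold change of 0.02. Of 6 tested genes among the other enzymes of this cycle, 3 rose and 1 fell (median log2 fold change 0.23). HACD3, a dehydratase of the cycle, rose from 14.8 ± 0.146 to 27.7 ± 0.147 FPKM (SD, n = 3; log2 fold change 0.90, adjusted p = 2.56e-06 from limma). ELOVL6, which lengthens palmitate, rose from 3.69 ± 0.159 to 5.67 ± 0.259 FPKM, a log2 fold change of 0.61. The ketoacyl reductase HSD17B12 rose by 0.38 on the log2 scale and the dehydratase HACD2 fell by 0.21. ELOVL3 and HACD4 were listed near 0 FPKM and not tested.

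Desaturases draw electrons from cytochrome b5 and its reductases. Among 10 tested electron donors and other lipid desaturases, 2 rose, 4 fell and 4 did not pass (median log2 fold change -0.09). The reductase CYB5R3 fell from 24.5 ± 0.319 to 17.8 ± 0.939 FPKM (log2 fold change -0.46, adjusted p = 0.000181 from limma). CYB5B, the mitochondrial form of cytochrome b5, fell by 0.23 on the log2 scale, and the reductase CYB5R1 rose by 0.24. SCD5, a stearoyl-CoA desaturase of the brain, fell by 0.52. SCD fell from 112 ± 37.6 to 53.7 ± 5.93 FPKM (51.8% lower on means, standard error 0.22 on the log2 scale, adjusted p = 0.00657 from limma). FASN, the synthase that supplies saturated chains, fell by 0.28 on the log2 scale (adjusted p = 0.0176 from limma), from 15.4 ± 1.72 to 12.6 ± 0.472 FPKM. That call was lost with no filter on low values (adjusted p = 0.0521 from limma) and when sh-TRAF2 replicate 1 (0.0549) or replicate 3 (0.0534) was left out.

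Genes that act on the products gave mixed counts. A peroxisomal list was built around the step that shortens the longest chains, and not all of its genes carry out that step. Of its 9 tested genes, 3 rose and 0 fell by limma at an adjusted p under 0.05 (median log2 fold change 0.16). They were the peroxisomal transporter ABCD3 (0.61), the enoyl-CoA reductase PECR (1.01, from 0.811 ± 0.116 to 1.74 ± 0.330 FPKM) and the isomerase ECI2 (0.22). Of 17 tested genes for activation and membrane incorporation, 3 rose and 6 fell (median -0.08). MFSD2A, the transporter of docosahexaenoic acid bound to lysophospholipid, rose by 0.75 on the log2 scale, from 10.9 ± 1.53 to 18.3 ± 1.43 FPKM. The acyltransferase AGPAT3 fell by 0.45 and MBOAT7, which places arachidonic acid in phosphatidylinositol, fell by 0.25, while the acyltransferase MBOAT2 rose by 0.58. Of 5 tested genes of release and oxygenation, the phospholipases PLA2G4C (0.60) and PLA2G4A (0.38) rose (median over the 5, 0.05). The phospholipase PLA2G6 had a log2 fold change of -0.38 (adjusted p = 0.135 from limma) and the cyclooxygenase PTGS2 one of -0.14 (adjusted p = 0.305 from limma).

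Transcripts of the known regulators of these genes were counted in the same way. Of 14 tested, 2 rose, 4 fell and 8 did not pass (median log2 fold change -0.18). SREBF1, which encodes the transcription factor SREBP-1, was at 5.44, 3.87 and 6.17 FPKM in sh-NC and 4.50, 4.74 and 5.05 in sh-TRAF2. Its groups overlapped (log2 fold change -0.09, standard error 0.15, 95% interval -0.43 to 0.25, adjusted p = 0.656 from limma). Its log2 fold change was -0.28 without sh-NC replicate 2, which passed the test (adjusted p = 0.0306 from limma), and 0.05 without sh-NC replicate 3, which did not. MLX, a partner of carbohydrate-responsive factors, rose by 0.70 on the log2 scale and MBTPS2, a protease that activates SREBPs, by 0.50. The nuclear receptors PPARD and NR1H2 fell by 0.28 and 0.22. PPARA and SREBF2, named after their values were seen, also fell. Their log2 fold changes were -0.46 and -0.17 (adjusted p = 0.00822 and 0.0341 from limma).

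Around the FADS cluster, 1 of 9 tested neighbouring genes rose, 1 fell and 7 did not pass (median log2 fold change 0.09). FTH1, the ferritin heavy chain, fell from 4359 ± 136 to 3272 ± 92.9 FPKM (log2 fold change -0.41, adjusted p = 4.12e-05 from limma), and DAGLA, a diacylglycerol lipase, rose by 0.35. INCENP and SDHAF2 had log2 fold changes of 0.17 and 0.12 (adjusted p = 0.0542 and 0.192 from limma). The number called among the 9 was 1 without sh-NC replicate 3 or sh-TRAF2 replicate 2, with no filter or with quantile normalization, and 4 with limma-voom.

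**Figure D5:**
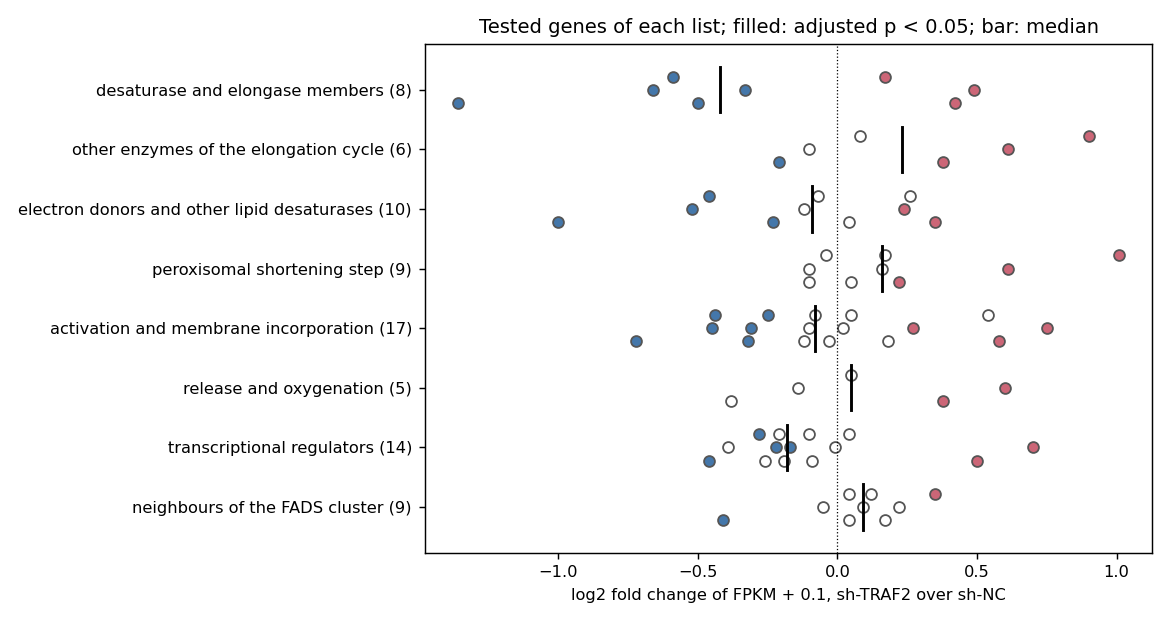
Log2 fold change of FPKM + 0.1, sh-TRAF2 over sh-NC (horizontal axis), of every tested gene in each list, with the number tested in brackets; filled points had an adjusted p under 0.05 (red higher, blue lower), open points did not, and the black bar is the median. The members are all filled, and the lists around them hold both higher and lower genes or open points. Members and lists were chosen with earlier results of these data known.

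The tested genes outside the 8 whose pattern over the 6 libraries was most like that of ELOVL1 were TRAM2, PDIA5 and RAD23B, with Pearson's r of 0.9999, 0.9998 and 0.9997 on log2(FPKM + 0.1). Of 11862 such genes, 155 had an r of 0.99 or more. The libraries fall into 2 groups, so these r describe mainly the step between sh-NC and sh-TRAF2 and are given with no test.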

How the data were processed

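The deposited table gave 1 FPKM value per gene and library, made by the authors' sequencing company. The submitters' processing notes name HISAT2, HTSeq, R 3.2.0 and DESeq2; genome build, annotation and strand setting are not given in the sources used here. Here, log2(FPKM + 0.1) was fitted, for the 11870 genes averaging 0.5 FPKM or more, with limma 3.58.1 in R 4.3.3 (eBayes with a trend, two-sided, Benjamini-Hochberg over all of them); fold changes are on that scale. The FPKM values were whole multiples of 1 read for all 23002 genes (lengths whole within 0.02 bases), which gave reads per gene and library totals; limma-voom on these reads was one alternative. Scripts were tested on simulated data. Genes named are the 8 members, TRAF2, SREBF1, SCD, FASN and ELOVL6, the 4 genes of smallest adjusted p in each list, those called beyond a log2 fold change of 1, and the 3 most like ELOVL1. One gene that this rule selects is not reported here. Cell type markers, ELOVL3 and HACD4 as untested list genes, and PPARA and SREBF2 are named beside the rule. Members and lists were chosen with earlier results of these data known. Principal transcripts were those ranked best by APPRIS, then by 3′UTR length.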

Additional observations from a re-analysis of the deposited data

How the results depend on the processing

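Over 15 other settings for each gene, TRAF2, FADS1, FADS2, FADS3, ELOVL1, ELOVL4 and ELOVL7 kept their direction and passed the test; FADS2 lay between -1.51 and -1.22. ELOVL2 no longer passed with no filter on low values (log2 fold change 0.42) or with quantile normalization (0.37), and ELOVL5 no longer passed with no filter (0.17), quantile normalization (0.13) or eBayes without a trend (0.17); without single libraries they lay between 0.33 and 0.51 and between 0.15 and 0.21. SREBF1, which did not pass, turned to 0.05 without sh-NC replicate 3 and passed at -0.28 without sh-NC replicate 2. Beyond a log2 fold change of 1, the genes called higher numbered 46 with a pseudocount of 1 and 238 with limma-voom, against 117 in the main analysis, and those called lower 41 and 173 against 87. Of the neighbours of the FADS cluster, 1 was called with no filter and with quantile normalization, 4 with limma-voom, and 1 to 3 without single libraries, against 2. The causes were not tested. Libraries of different groups correlated at 0.979 to 0.985 over the tested genes. To look for pairing, each gene's group mean was subtracted and the remaining deviations were correlated. For same-numbered libraries of the 2 groups these correlations of deviations were -0.0812, 0.0722 and 0.0728. Those of differently numbered libraries lay between -0.141 and 0.0673, so this check does not settle whether the libraries were paired. With the number as a replicate block FADS2 stayed at -1.36 (adjusted p = 8.27e-05 from limma) and 8 members were called. The 3 libraries a group, 1 cell line and an unstated hairpin limit these results, and the reads of ELOVL2 limit its precision.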
